A study of Arabidopsis thaliana with 6 samples.

Results

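Fructokinases phosphorylate fructose to fructose 6-phosphate and belong to the pfkB family of ATP-dependent sugar and nucleoside kinases. The 7 Arabidopsis genes of this kind, AT1G66430, AT1G06020, AT1G06030, AT2G31390, AT3G59480, AT4G10260 and AT5G51830, were followed in leaves of the chr11-1 chr17-1 double mutant and of wild type. The family was chosen on the measured fall of AT1G66430, one of the largest in this same comparison, so the difference of that gene is given as a description with no test. The other genes were listed because they belong to the family, but earlier results of these data were known when the list was made. Of the 7 genes, 6 had a probe set that the probe table assigns to them alone, among 13286 named genes measured. AT1G06030 has only a probe set that it shares with another gene. No sequence of these genes was used here.

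The mutant plants carried the chr11-1 and chr17-1 mutations together, in CHR11 and CHR17, which encode ISWI-type chromatin-remodelling ATPases. Their controls were wild-type Col-0 plants. Leaves of both genotypes were taken from untreated seedlings at 15 days, grown at 21 °C in 16 h of light and 8 h of dark. RNA was read on 6 single-colour ATH1 arrays, 3 for each genotype. The sources used here do not give the kind of lesion in each allele, the number of independent lines or the number of plants behind an array. Nothing says that the arrays of a genotype came from separate cultures of plants, so each p-value reflects the spread among these arrays alone, possibly a technical one. With 3 arrays a group, precision is limited.

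In leaf cells, sucrose is split either by invertases, into glucose and fructose, or by sucrose synthases, into fructose and UDP-glucose. Fructose enters glycolysis, starch synthesis or sucrose resynthesis only after a kinase has phosphorylated it, and hexokinases can do this as well as fructokinases. Plants keep fructokinases in the cytosol and in plastids. AT1G66430 is generally annotated as the chloroplast isoform, which the tables used here do not state. The comparison asked how the level of each gene differed between the double mutant and Col-0.

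AT1G66430 had log2 levels of 6.16, 6.17 and 6.41 in the mutant arrays, against 9.04, 9.22 and 9.18 in the Col-0 arrays. All mutant arrays lay below all Col-0 arrays, with a gap of 2.63 between the nearest values of the groups. The means were 6.25 ± 0.14 in the mutant and 9.15 ± 0.09 in Col-0 (SD, n = 3 each). The mutant minus Col-0 difference was -2.90 on the log2 scale (SE 0.10), so the signal in the mutant was 7.46-fold lower. The mutant level still stood 1.50 above the array medians on the log2 scale, against 4.39 above them in Col-0, so the remaining signal was not at the bottom of the range. In leaf RNA, fewer cells that express a gene and less RNA per cell cannot be told apart.

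Of the 22746 probe sets tested, 14 had a larger fall than AT1G66430, and of the 13286 named genes 7 did. Without mutant replicate 1, whose 25S ribosomal RNA control read 8.90 against 10.85 in both other mutant arrays and 10.32 to 10.49 in Col-0, the difference of AT1G66430 was -2.86. With the groups 2.63 apart, leaving out any single array could not have removed the fall, so this value is a description only.

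Of the 5 relatives with a probe set of their own, AT2G31390 and AT5G51830 rose in the mutant. AT1G06020, AT3G59480 and AT4G10260 did not pass the test. Their Col-0 means were 3.72, 4.17 and 3.90, and no probe set tested had a value below 2.96. They could therefore not have shown a fall as large as that of AT1G66430. The test was limma over all 22746 probe sets, with Benjamini-Hochberg adjustment and a threshold of 0.05. By that test 2 of 5 relatives were higher and 0 lower (0 lower also at an unadjusted p below 0.05), against 14.0% higher and 14.7% lower among all probe sets. The median difference of the 5 was 0.06, beside -0.0028 over all probe sets. With 5 genes, these shares are a description of the family and show nothing particular to it.

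AT2G31390 had log2 levels of 8.22, 7.75 and 8.19 in the mutant, against 7.28, 7.49 and 7.19 in Col-0. The lowest mutant array lay 0.26 above the highest Col-0 array. The means were 8.06 ± 0.26 in the mutant and 7.32 ± 0.16 in Col-0 (SD, n = 3 each), a rise of 0.74 (SE 0.14, 95% interval 0.43 to 1.04) or 1.67-fold. It passed limma (adjusted p = 0.00229, range over the alternatives 0.000462 to 0.0124).

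AT5G51830 had log2 levels of 6.36, 6.04 and 5.83 in the mutant, against 5.52, 5.55 and 5.75 in Col-0. The groups did not overlap, but only 0.08 separated the lowest mutant array from the highest Col-0 array. The means were 6.08 ± 0.26 in the mutant and 5.60 ± 0.13 in Col-0 (SD, n = 3 each), a rise of 0.47 (SE 0.13, 95% interval 0.18 to 0.77) or 1.39-fold. This rise passed limma with all 6 arrays (adjusted p = 0.022, range over the alternatives 0.007 to 0.0804). It no longer passed without Col-0 replicate 1 (0.43, limma adjusted p = 0.0697), Col-0 replicate 2 (0.44, 0.0804), mutant replicate 1 (0.33, 0.0573) or mutant replicate 2 (0.49, 0.0531). With any one of those arrays left out, 1 of 5 relatives was higher.

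**Figure D1:**
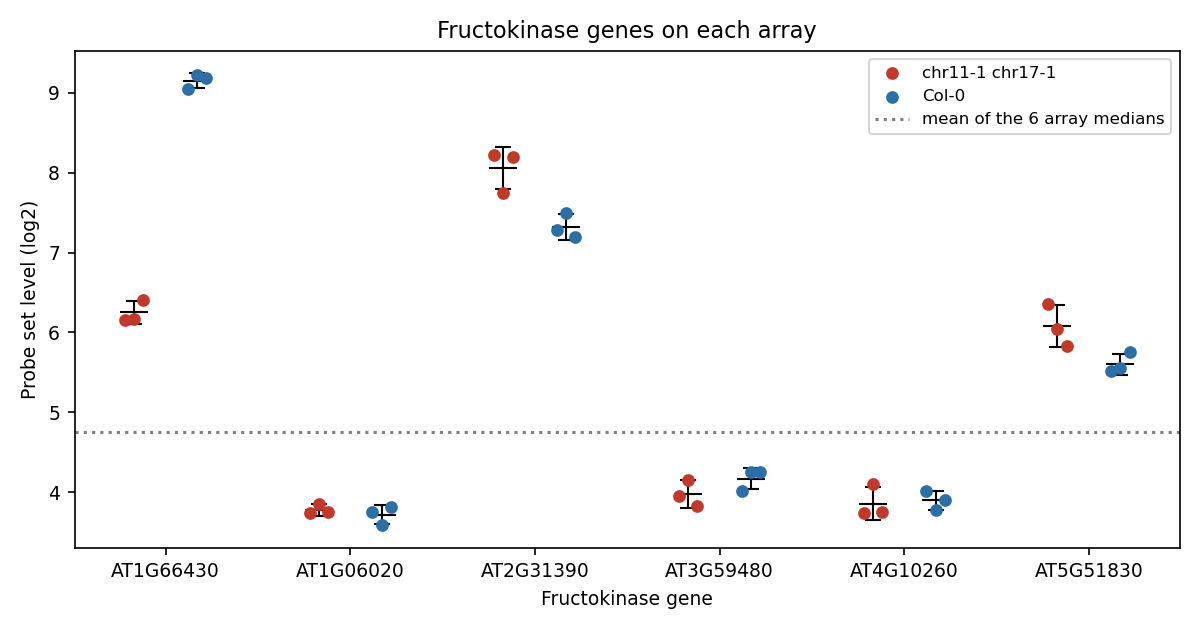
Log2 probe set level of the 6 measured fructokinase genes on each array, chr11-1 chr17-1 in red and Col-0 in blue, with the mean and SD of 3 arrays in black and the mean of the array medians dotted. AT1G66430 has mutant values of 6.16 to 6.41 and Col-0 values of 9.04 to 9.22, AT2G31390 and AT5G51830 lie higher in the mutant, and the other 3 genes stay below the dotted line in both genotypes.

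The remaining 3 relatives had low signal in both genotypes. AT3G59480 had log2 levels of 3.96, 4.16 and 3.83 in the mutant, against 4.02, 4.25 and 4.25 in Col-0. The groups overlapped, and the difference was -0.19 (95% interval -0.44 to 0.05, limma adjusted p = 0.26). AT4G10260 had 3.74, 4.10 and 3.75 in the mutant, against 4.02, 3.78 and 3.91 in Col-0.

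These values of AT4G10260 overlapped as well, and its difference was -0.04 (95% interval -0.30 to 0.23, limma adjusted p = 0.884), with a sign that changed when single arrays were left out. AT1G06020, which lies directly beside AT1G06030 in the gene order of chromosome 1, had 3.74, 3.86 and 3.75 in the mutant, against 3.76, 3.59 and 3.82 in Col-0. Its groups overlapped too, with a difference of 0.06 (95% interval -0.15 to 0.27, limma adjusted p = 0.734), whose sign changed without Col-0 replicate 2. All 3 genes stood below the array medians of 4.73 to 4.77, and AT1G06020 and AT4G10260 were among the lowest 30% of probe sets by mean. Background was not measured, so signal this low cannot show whether their transcripts were unchanged.

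The genotypes did not overlap in 3 of the 6 measured genes. Such separation was seen in 39.5% of all probe sets, with the mutant arrays below in 20.1% and above in 19.4%. Over the whole set 2 genes were higher and 1 lower, where 28.6% of all probe sets were called. AT1G66430 is that lower gene and was the reason for choosing the family, so nothing is read from this count. SDs between replicate arrays ran from 0.07 to 0.26 on the log2 scale across the family, and were widest for AT2G31390 and AT5G51830 in the mutant.

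Set against each relative on the same arrays, AT1G66430 differed in change by -3.64 (SE 0.16) from AT2G31390 and by -3.37 (SE 0.24) from AT5G51830, on the log2 scale. Each SE in this comparison comes from the per-array differences between probe sets and not from limma. From AT1G06020, AT4G10260 and AT3G59480, AT1G66430 differed by -2.96, -2.86 and -2.71, with SEs of 0.15 to 0.21. The signal of these relatives was too low to show a fall of like size. Those values therefore mainly repeat the difference of AT1G66430 itself. Taken each against its own Col-0 level, the relative of largest rise, AT2G31390, rose 1.67-fold, while AT1G66430 was 7.46-fold lower. The values set against relatives are differences of changes and not of levels. They carry no p because AT1G66430 was chosen for its fall. Probe sets differ in how strongly they bind their target, so the log2 levels do not give the order of transcript amount among the genes.

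**Figure D2:**
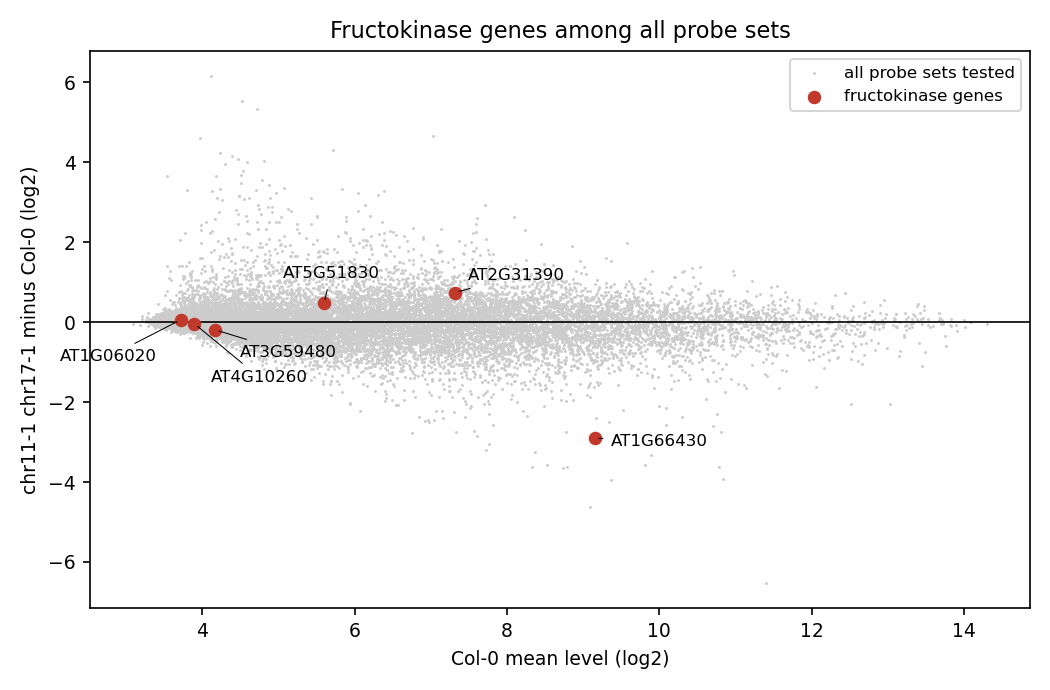
Mean log2 level in Col-0 (horizontal) and chr11-1 chr17-1 minus Col-0 difference in log2 level (vertical) for the 22746 probe sets tested in grey, with the 6 fructokinase genes in red. AT1G66430 lies at -2.90, AT2G31390 and AT5G51830 at 0.74 and 0.47, and the other 3 genes close to 0 at the dim end.

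Other kinases of the pfkB fold use ribose, pseudouridine, adenosine or other substrates. Of 12 such genes listed, 5 had a probe set of their own, and 2 of these rose and 2 fell, where 14.0% of all probe sets were higher and 14.7% lower. The median of the 5 was 0.12, beside -0.0028 over all probe sets. Of the 5, 0 were among the lowest 30% of probe sets by level. Without that lowest 30%, 3193 of 15922 probe sets were higher and 3389 lower. AT1G49350, annotated as a pseudouridine kinase, had log2 levels of 4.84, 4.90 and 4.76 in the mutant, against 5.54, 5.94 and 5.72 in Col-0. The groups were apart, and it fell by 0.90 (SE 0.11, limma adjusted p = 0.000157).

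AT4G28706, a kinase of unstated substrate, had 7.88, 7.68 and 7.18 in the mutant, against 8.16, 8.27 and 8.21 in Col-0. Its mutant arrays were all lower and more widely spread, and it fell by 0.63 (SE 0.16, limma adjusted p = 0.0108). AT5G43910 rose by 0.44 (SE 0.13, limma adjusted p = 0.0258, 0.00847 to 0.0809 over the alternatives) and AT1G19600 by 0.38 (SE 0.12, limma adjusted p = 0.0406, 0.0276 to 0.156). AT5G43910 no longer passed without Col-0 replicate 1 (limma adjusted p = 0.0636), 2 (0.0809) or 3 (0.0588), and without mutant replicate 1 its difference was 0.28. AT1G19600 no longer passed with a trended robust prior (limma adjusted p = 0.0507) or without Col-0 replicate 1 (0.0718), Col-0 replicate 3 (0.156), mutant replicate 1 (0.122) or mutant replicate 2 (0.065). The ribokinase gene AT1G17160 had 0.12 and did not pass. The measured differences in this wider group, -0.90 to 0.44, were all smaller in size than that of AT1G66430. This follows largely from the choice of AT1G66430 for one of the largest falls, so nothing is read from it.

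The steps that supply and use fructose 6-phosphate were followed in 5 lists of 67 genes, of which 12 had a probe set of their own. Among these 12, 2 rose and 4 fell, against 14.0% higher and 14.7% lower among all probe sets, with a median difference of -0.13 beside -0.0028. Without the lowest 30% of probe sets by level, where calls are fewer, 2 of 11 listed genes were higher and 4 lower. Among the 15922 probe sets left, 3193 were higher and 3389 lower. The largest falls were in sucrose synthesis, which uses fructose 6-phosphate and UDP-glucose. None of the 6 listed hexokinase genes had a probe set named to it alone, so the other enzymes that phosphorylate fructose were not analysed here.

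Sucrose-phosphate synthase joins UDP-glucose and fructose 6-phosphate, and sucrose-phosphatase then releases sucrose. ATSPS4F (AT4G10120), a sucrose-phosphate synthase gene, gave log2 values of 6.74, 6.16 and 6.26 for the mutant, against 8.47, 8.41 and 8.58 in Col-0. The groups lay far apart, and the gene fell 4.29-fold, a log2 difference of -2.1 (SE 0.14, limma adjusted p = 2.82e-06). AT2G35840, a sucrose-phosphatase family gene, had 7.14, 7.34 and 7.23 in the mutant, against 8.86, 8.80 and 8.64 in Col-0.

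That is again a complete separation, with a 2.90-fold fall (-1.53 on the log2 scale, SE 0.10, limma adjusted p = 2.03e-06). AT3G54270, also annotated as a sucrose-phosphatase, had -0.10 and a low level in both genotypes (3.97 in the mutant and 4.08 in Col-0). Of the 8 listed genes of this step, 3 were measured, 2 of which fell, where 14.7% of all probe sets were lower, with a list median of -1.53.

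**Figure D3:**
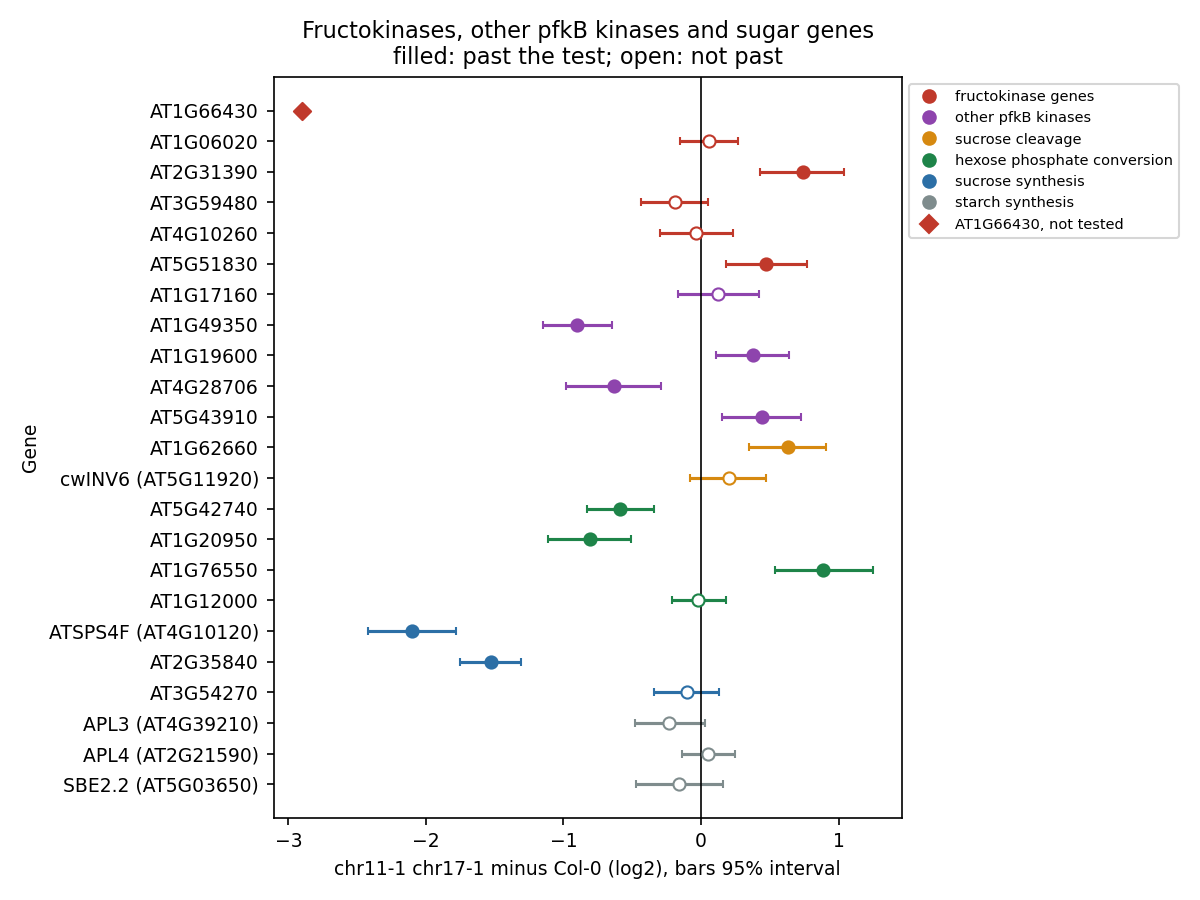
Difference in log2 level between chr11-1 chr17-1 and Col-0 (horizontal) for each measured gene of the fructokinase, pfkB and sugar metabolism lists (vertical), with bars for the 95% limma interval and circles filled where a gene passed the test at adjusted p 0.05. The diamond is AT1G66430, shown with no test. AT1G66430 (-2.90), ATSPS4F (-2.1) and AT2G35840 (-1.53) lie farthest to the left, and AT1G76550 (0.89) and AT2G31390 (0.74) farthest to the right.

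Among enzymes that convert hexose phosphates, 4 of 18 listed genes were measured, and 1 rose and 2 fell, where 14.0% of all probe sets were higher and 14.7% lower. Both measured genes for the regulatory alpha subunit of pyrophosphate-dependent phosphofructokinase, which interconverts fructose 6-phosphate and fructose 1,6-bisphosphate, changed, in opposite directions. AT1G20950 had log2 levels of 8.54, 8.13 and 8.09 in the mutant, against 8.89, 9.20 and 9.09 in Col-0, and fell by 0.81 (SE 0.13, limma adjusted p = 0.00112). AT1G76550 had 7.61, 7.51 and 7.50 in the mutant, against 6.35, 7.07 and 6.53 in Col-0, and rose by 0.89 (SE 0.16, limma adjusted p = 0.00174).

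In neither gene did the genotypes overlap. AT1G12000, a gene for the catalytic beta subunit and the only measured one listed, had -0.02 (95% interval -0.21 to 0.18) and did not pass. AT5G42740, the cytosolic phosphoglucose isomerase gene, whose product interconverts glucose 6-phosphate and fructose 6-phosphate, fell by 0.59 (SE 0.11, limma adjusted p = 0.00226). Its levels were 7.33, 7.66 and 7.42 in the mutant, against 7.94, 8.14 and 8.09 in Col-0.

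Of 23 sucrose-cleaving enzymes listed, 2 were measured and 1 rose, where 14.0% of all probe sets were higher. AT1G62660, a vacuolar invertase gene, gave log2 values of 7.47, 7.29 and 7.09 for the mutant, against 6.51, 6.87 and 6.59 in Col-0. All mutant arrays were higher, and the rise was 0.63 (SE 0.13, limma adjusted p = 0.00349). cwINV6 (AT5G11920), a fructan exohydrolase gene of the cell wall invertase family, had 0.20 and did not pass (limma adjusted p = 0.314).

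None of the 3 measured genes of starch synthesis, out of 12 listed, passed limma, which called 28.6% of all probe sets. An unadjusted p below 0.05 was seen in 0 of the 3. APL3, a large subunit of ADP-glucose pyrophosphorylase, had -0.23 (95% interval -0.48 to 0.03), and SBE2.2, a branching enzyme gene, had -0.16 (-0.47 to 0.16). APL4, another large subunit, had 0.05 at a level of 3.79 in the mutant and 3.73 in Col-0. These 12 measured genes are a small and uneven sample of the pathway, since most well-known sugar genes have no named probe set here.

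By order along chromosome 1, the 5 nearest measured genes on each side of AT1G66430 reached 23 genes to one side and 9 to the other. Of these 10 neighbours, 0 passed limma, against 28.6% of all probe sets, and 0 had an unadjusted p below 0.05. Their differences ran from -0.18 to 0.22 with a median of 0.03, beside -2.90 for AT1G66430. The next gene, AT1G66440, had 0.03 (95% interval -0.21 to 0.27), at a low level of 4.01 in the mutant and 3.99 in Col-0. CML23 (AT1G66400), a calmodulin-like gene 3 places before it, had the highest neighbouring difference, 0.22 (-0.05 to 0.48). Among the 10, 6, with AT1G66440 among them, were in the lowest 30% of probe sets by level, where the signal is too low to show whether a gene changed. CML23 (4.52 in the mutant, 4.30 in Col-0) and AT1G66510 (4.43 in the mutant, 4.61 in Col-0) also lay below the array medians. No probe set tested had a value below 2.96, so neither could have shown a fall as large as that of AT1G66430. AT1G66330, one of the brighter ones, had 8.92 in the mutant and 8.77 in Col-0.

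**Figure D4:**
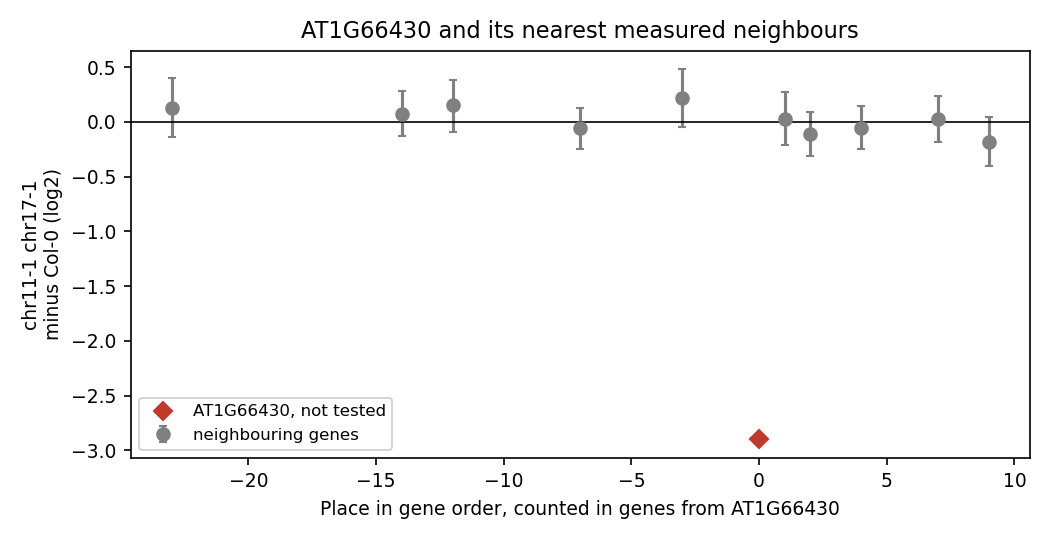
Difference in log2 level between chr11-1 chr17-1 and Col-0 (vertical) against place in the gene order, in genes from AT1G66430 (horizontal), for AT1G66430 as a red diamond with no test and its 10 nearest measured neighbours in grey with 95% limma intervals. The neighbours lie between -0.18 and 0.22, and AT1G66430 at -2.90.

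The named genes most like AT1G66430 over the 6 arrays were found by the root mean square difference between log2 levels, each gene taken relative to its own Col-0 mean. Nearest was AT1G04040, at 0.17, with a difference of -2.74 between mutant and Col-0. AT5G50100 followed at 0.19 (-3.06), AT4G22830 at 0.20 (-2.76), COR15A at 0.27 (-2.60) and AT5G56260 at 0.29 (-2.75). Among these, COR15A encodes a chloroplast protein that accumulates in the cold. With 2 groups of 3 arrays this measure mainly finds genes with a fall of like size, and nothing is read from it about shared function.

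CHR17, a mutated gene, gave log2 values of 5.33, 4.91 and 5.11 for the mutant, against 4.57, 4.92 and 4.84 for Col-0. These overlapped, with a difference of 0.34 (95% interval 0.05 to 0.62, limma adjusted p = 0.0832, 0.0406 to 0.265 over the alternatives). Since the places of the mutations and of the probes are not known here, these values do not check the labels. CHR11 was not analysed here. The arrays resembled each other closely. Pearson's r, computed over probe sets that are no independent replicates, was 0.993 to 0.996 within a genotype and 0.970 to 0.972 between genotypes. Of 10 leaf markers 2 were measured, LHCB4.2 at 13.50 in the mutant and 12.95 in Col-0 and RCA at 13.67 in the mutant and 13.90 in Col-0, all near the top of the range. LHCB4.2, a light-harvesting protein gene, rose by 0.54 (SE 0.09, limma adjusted p = 0.000747). RCA, which encodes Rubisco activase, had -0.23 with no overlap between genotypes (limma adjusted p = 0.0694, 0.00317 to 0.211 over the alternatives). The 5 measured markers of root hair, anther and meristem had means of 3.65 to 4.28 in the mutant and 3.65 to 4.25 in Col-0, below the array medians. None of the 5 passed limma, against 28.6% of all probe sets, and 0 had an unadjusted p below 0.05. As a reading of RNA quality, the actin 3′ control exceeded the 5′ control on the log2 scale by 3.10, 2.96 and 3.0 in the mutant and 3.29, 3.17 and 3.21 in Col-0. For GAPDH the same reading averaged 0.84 in the mutant and 0.63 in Col-0, a shift in the other direction. The part of these shifts in the fructokinase results was not tested.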

How the data were processed

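Per the labels, 1 RNA sample per array was read on ATH1 arrays. The authors deposited log2 values per probe set. The submitters' processing notes name RMA and Partek without a role for either, and the sources used here give no settings or versions. Values were used as deposited. Of 22810 probe sets, 64 controls were left out. Of 14016 probe sets in the probe table, 13513 have 1 gene and 503 several; 13436 of the 13513 were found in a TAIR10.1 gene table, used for names and gene order, and cover 13286 genes. The highest mean probe set stood for a gene, and every gene of the family and lists had 1. Many genes have a locus code as their only name there, and their roles come from general Arabidopsis annotation.

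All 22746 probe sets were fitted with limma 3.58.1 in R 4.3.3 (lmFit, eBayes, two-sided, mutant minus Col-0). Intervals are 95% limma intervals for single probe sets. Python 3.11.15, with matplotlib 3.10.9 and pandas 2.3.3, made tables and figures. The fit was tested on simulated data of 22746 probe sets with 200 changed. It found 91.0% of simulated log2 changes of 1 and 37.3% of those of 0.5, and it called 12 unchanged probe sets. In the real data 28.6% of probe sets were called, so the same adjusted threshold is less strict there. The simulated shares therefore do not say how often changes of these sizes are found in the real data. The members and lists were chosen with earlier results of these data known. Named genes were the family, up to 4 members of each list that passed or, where none did, the 2 with most change, the 5 most like AT1G66430 and neighbours past the threshold. Other named genes were added after their values were seen. Alternatives were quantile normalization, median centring, leaving out dim or suffixed probe sets, a trended robust prior, the replicate block and leaving out each array.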

Additional observations from a re-analysis of the deposited data

How the results depend on the processing

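All alternatives were planned. AT1G66430, given with no test, had -2.98 to -2.86 when single arrays were left out. AT2G31390 had 0.65 to 0.89 and kept its direction and side of the threshold in all 12 alternatives. AT5G51830 had 0.33 to 0.60 and lost the test without Col-0 replicate 1 (0.43), Col-0 replicate 2 (0.44), mutant replicate 1 (0.33) or mutant replicate 2 (0.49), so the number of relatives higher ran from 1 to 2 when single arrays were left out; fewer samples entered these fits. The number of other pfkB kinases higher ran from 0 to 2 when single arrays were left out, with 0 without Col-0 replicate 1 or Col-0 replicate 3, and was 1 with a trended robust prior, for which the cause was not tested. The sugar lists had 2 higher and 4 lower in every alternative. AT4G10260 changed sign without Col-0 replicate 1 (0.02), mutant replicate 1 (0.03) or mutant replicate 3 (0.02), in a range of -0.16 to 0.03, and AT1G06020 without Col-0 replicate 2 (-0.0037), in a range of -0.0037 to 0.11. SBE2.2 had 0.01 without Col-0 replicate 2 (-0.31 to 0.01 when single arrays were left out) and EXPA18 -0.06 without mutant replicate 3 (-0.06 to 0.08). The changes of AT1G66430 less those of its relatives stayed between -3.75 and -2.58. For the relatives of low signal these values mainly repeat the difference of AT1G66430 itself. Arrays that share a replicate number did not deviate together (r between -0.30 and -0.17), so no shared shift was seen. Each deviation was taken from a mean of 3 arrays, so these values cannot show whether same-numbered arrays were processed together. Under the replicate block, differences of AT1G66430, AT2G31390 and AT5G51830 were -2.90, 0.74 and 0.47, and no call among the relatives, the other pfkB kinases or the sugar lists changed. Each measured gene had 1 probe set, so averaging probe sets gave no other value, and without dim probe sets AT1G06020 and AT4G10260 gave none. Signal close to the bottom of the range limits what 3 of the 6 genes can show.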

Other observations

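The probe set that the probe table gives to both AT1G06030, the remaining fructokinase gene, and AT1G50390, another pfkB-type gene, could not be assigned to either. Its log2 levels were 3.54, 3.71 and 3.74 in the mutant arrays, against 3.63, 3.68 and 3.56 in the Col-0 arrays. The groups overlapped, and the difference was 0.04 (95% interval -0.17 to 0.25, limma adjusted p = 0.834). The level lay below the array medians of 4.73 to 4.77 in both genotypes.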
